A study of Rattus norvegicus with 63 samples.

Results

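Rat kidneys taken 6 h after the rats were injected with methylprednisolone, an anti-inflammatory steroid of the glucocorticoid class, were compared with kidneys taken 2 h after the same injection, on the smaller of 2 Affymetrix array types. The comparison holds 6 of the 63 arrays of the series, 3 titled 6 h and 3 titled 2 h, chosen by time and array type in their titles, and it covers all probe sets of that array. A probe set is a group of short probes for one transcript. The same array type also carried 4 arrays from rats that received no injection (0 h), which entered the fit and are shown beside the 2 treated groups. The main array type carried the remaining 53 arrays, among them 3 at 2 h and 3 at 6 h. All treated rats received the same drug. The labels name the tissue, drug and time, but neither dose, strain, age, sex nor hour of day, and no vehicle-injected group was analysed here. Sample numbers 1 to 3 occur at each time, but nothing in the labels ties them to separate animals; the p-values therefore reflect how far these samples differ among themselves, and that spread may be technical. In whole kidney RNA, fewer cells of a type and less RNA per cell cannot be told apart.

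Glucocorticoids bind a receptor in the cytosol that moves to the nucleus, raises transcription at some genes and lowers it at others, many of them inflammatory genes. NF-kappaB is the best known of the factors it opposes: dimers that include the product of Nfkb1 sit in the cytosol bound by the inhibitor that Nfkbia encodes, and when that inhibitor is degraded they enter the nucleus and switch on chemokines, adhesion molecules and Nfkbia itself. In the kidney glucocorticoids also act on tubule cells, where they affect sodium transport, ammonia production and the conjugation of drugs and hormones.

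Of the 5244 probe sets bright enough to test, 75 (1.43%) differed between 6 h and 2 h at an adjusted p under 0.05 (limma; 865 had an unadjusted p under 0.05). At 6 h 36 were higher (0.686%), from 28 genes with 1 symbol, and 39 were lower (0.744%), from 26 genes. The 13 others had no single gene symbol. These calls come from a fit of all 10 arrays by time, without pairing. Fitted as 3 pairs by sample number on the 6 arrays alone, 0 probe sets passed in either direction. In every called probe set the 3 arrays of one time lay above the 3 of the other, a separation that 19.7% of all tested probe sets showed. The differences ranged from 0.94 to 2.73 (median 1.58) among those higher and from 0.88 to 4.65 in size (median 1.44) among those lower, as log2 of the scaled signal plus a pseudocount of 3.56. The lower genes with the smallest adjusted p included Nfkb1, Jun and Ctsl, and the higher ones Gstm1, Plcl1 and Por. The median difference of all tested probe sets was 0.05. Signals below are intensities as deposited, and differences are log2 values with their standard error.

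One array stood apart before any comparison. The log2 values of 2 h replicate 2 correlated with those of the other 2 h arrays at r = 0.890 and 0.877 across probe sets, against 0.950 between those arrays and 0.950 to 0.959 among the 6 h arrays. It alone carried RNA of Alb, the liver-made serum protein, at 156, 166 and 299 on 3 of 4 probe sets, against at most 8.32, 12.9 and 3.93 on the other 9 arrays, and on the fourth it lay within their range. Cfd, a fat cell protease, stood there at 128, against at most 8.19 elsewhere. Without this array 33 of the 36 higher and 35 of the 39 lower calls were kept, and 63 higher and 97 lower were called in all. It is also the only 2 h array whose title carries the letter a, as all 0 h and 6 h titles do. The 2 h arrays left without it, replicates 1 and 3, carry the letter b, of unstated meaning. Values given below without 2 h replicate 2 therefore cannot separate time from that letter. Markers of kidney were high on all 10 arrays: Slc34a1, which takes up phosphate in proximal tubules, lay between 3889 and 8352 on probe set AB013455_g_at, and Umod, the main urinary protein of the thick limb, between 2231 and 5279.

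Promoters are shown first for 4 of the lower genes, Cxcl10, Nfkbia, Nfkb1 and Ifitm3, because they hold a match to the DNA word that NF-kappaB is known to bind, and their own RNA levels are among the results that follow. Each sequence runs 5′ to 3′ from 250 bases before to 50 bases after the annotated start (RefSeq, assembly GRCr8, at chr14:15988816-15989115 on the plus strand for Cxcl10, chr6:78597023-78597322 on the minus strand for Nfkbia, chr2:226805413-226805712 on the minus strand for Nfkb1 and chr1:205541709-205542008 on the minus strand for Ifitm3). Capitals mark matches to the word GGGAA, any base, TTCC on either strand.
Cxcl10: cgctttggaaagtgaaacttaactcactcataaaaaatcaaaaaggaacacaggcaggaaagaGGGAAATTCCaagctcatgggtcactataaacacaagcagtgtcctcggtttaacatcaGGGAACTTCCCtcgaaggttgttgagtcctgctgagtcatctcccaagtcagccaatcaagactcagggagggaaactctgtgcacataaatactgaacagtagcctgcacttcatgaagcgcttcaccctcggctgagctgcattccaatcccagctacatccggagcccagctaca
Nfkbia: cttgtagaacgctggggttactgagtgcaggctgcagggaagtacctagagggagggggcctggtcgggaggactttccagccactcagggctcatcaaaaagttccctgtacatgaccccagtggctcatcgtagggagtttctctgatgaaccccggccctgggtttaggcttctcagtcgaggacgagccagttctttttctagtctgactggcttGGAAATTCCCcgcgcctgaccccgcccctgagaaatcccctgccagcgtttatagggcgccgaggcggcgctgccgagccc
Nfkb1: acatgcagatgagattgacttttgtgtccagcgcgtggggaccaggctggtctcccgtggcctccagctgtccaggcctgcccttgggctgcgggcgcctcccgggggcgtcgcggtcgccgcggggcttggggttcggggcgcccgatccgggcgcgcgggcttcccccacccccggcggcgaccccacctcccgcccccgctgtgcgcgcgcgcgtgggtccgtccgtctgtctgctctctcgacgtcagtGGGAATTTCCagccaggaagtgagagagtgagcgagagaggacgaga
Ifitm3: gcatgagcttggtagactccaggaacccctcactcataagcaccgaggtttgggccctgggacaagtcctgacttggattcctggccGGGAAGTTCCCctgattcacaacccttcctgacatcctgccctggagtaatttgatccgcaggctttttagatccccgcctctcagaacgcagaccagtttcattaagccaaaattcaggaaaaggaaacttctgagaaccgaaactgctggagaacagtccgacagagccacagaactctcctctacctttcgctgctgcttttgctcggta
The matches began at -187, -128 and -127 from the start in Cxcl10, at -31 in Nfkbia, at 3 in Nfkb1 and at -163 and -162 in Ifitm3. All words were searched on both strands. Matches at neighbouring positions are the same bases read on both strands. This word occurred in 4 of the 23 lower genes with a listed promoter (17.4%) and in 0 of the 27 higher genes with one, against 0.371% of all 27457 promoters of the table and 0.498% of those of tested genes. A looser word, GGG and TTTCC with any 2 bases between them, occurred in 8.7% of the lower genes (Nfkb1 and Nfkbia, at the same bases), in 0% of the higher ones and in 1.51% of all promoters. Icam1, Vcam1 and Cx3cl1, lower genes described below, had a listed promoter and held neither word in this window. Both words were chosen after the lower genes were known. TGTTCT, the hexamer that each subunit of the glucocorticoid receptor recognises, was in 22.2% of the higher genes and 8.7% of the lower ones, against 20.1% of all promoters and 12.6% of those of tested genes. TATAAA was in 14.8% of the higher and 34.8% of the lower genes, against 14.3% of all promoters and 9.61% of those of tested genes. CACGTG was in 3.7% and 17.4%, against 6.65% and 9.65%. TGACGTCA (1.91% of all promoters) and the full receptor element, AGAACA and TGTTCT with any 3 bases between them (0.00728%), were in none of either group. A match is a description of the letters in this window and says nothing about binding.

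The NF-kappaB genes themselves were lower at 6 h. Nfkb1 had signals of 189, 208, 196 and 172 at 0 h, 521, 583 and 597 at 2 h and 176, 128 and 112 at 6 h. All 3 arrays at 2 h lay above all others, and those at 6 h lay in or below the untreated range. The difference was -2.03 ± 0.21, 4.07-fold lower at 6 h (limma adjusted p = 0.00152). Nfkbia had 111, 121, 71.8 and 112 at 0 h, 826, 783 and 861 at 2 h and 279, 342 and 262 at 6 h. It differed by -1.48 ± 0.23 (adjusted p = 0.0109; its second probe set by -1.16, adjusted p = 0.0281), and its 6 h arrays still lay above the untreated ones. Within the sample numbers the difference of Nfkb1 was -1.55, -2.15 and -2.38. Nfkb1 kept its call without any 1 of the 10 arrays, while Nfkbia missed it without 6 h replicate 3 (adjusted p = 0.07).

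Genes that NF-kappaB is known to drive, chemokines and adhesion molecules, were lower at 6 h as well. Cxcl10, a chemokine that draws T cells, had 35.3, 30.3, 31.2 and 19.8 at 0 h, 1469.9, 112 and 1768 at 2 h and 29.7, 29.8 and 13.5 at 6 h. All 2 h arrays lay above all others, although 2 h replicate 2 was far below its 2 companions, and the 6 h arrays were within or just under the untreated range. The difference was -4.65 ± 0.80, 25.2-fold lower at 6 h (adjusted p = 0.0212), and without 2 h replicate 2 it was -5.92 (adjusted p = 5.85e-06). Icam1, an adhesion molecule of endothelium and tubules that leukocytes bind, had 140.4, 121, 159 and 124 at 0 h, 848, 349 and 904 at 2 h and 218, 158 and 154 at 6 h. It differed by -1.86 ± 0.33 (adjusted p = 0.0214), with its other probe set at -1.24 (adjusted p = 0.14). Vcam1, the adhesion molecule for lymphocytes and monocytes, had 229.7, 261 and 173 at 2 h and 105, 78.2 and 53 at 6 h, against 62.7 to 78.1 at 0 h. It was lower by -1.48 ± 0.26 (adjusted p = 0.0214; other probe set -1.52, adjusted p = 0.0732, or 0.0293 with sample number as a block). Cx3cl1, the membrane-bound chemokine fractalkine, had 330.3, 376 and 369 at 2 h and 189, 192 and 163 at 6 h, below the 204 to 328 of the untreated arrays (-0.97 ± 0.21, adjusted p = 0.0465). Its other probe sets stood at -1.31 and -1.69 without passing (adjusted p = 0.231 and 0.145). Cxcl10 missed the threshold without 2 h replicate 3 (0.0578) or 6 h replicate 2 or 3 (0.0764 and 0.0846), Icam1 without 2 h replicate 1 or 3 or 6 h replicate 2 or 3 (up to 0.101) and Vcam1 without 2 h replicate 1 or 6 h replicate 2 or 3 (up to 0.0882). Cx3cl1 missed it without any 1 of 8 arrays, all but 0 h replicate 1 and 2 h replicate 2 (up to 0.173).

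Of the 14 tested genes for cytokines, chemokines and adhesion molecules, these 4 were lower by at least 1 probe set and 0 higher. Counting each gene by its brightest probe set, 3 of the 14 were lower (Cxcl10, Icam1 and Vcam1), against 0.662% of all 3174 genes tested, of which 0.788% were higher. The median difference of the list was -1.39, against 0.05 over all genes tested, and 2 of the 14 had a positive difference, against 54.7% of all genes. Among those that did not pass, the platelet and endothelial selectin Selp stood at -1.91 ± 0.44 (adjusted p = 0.0628; 0.0397 with the block), the monocyte chemokine Ccl2 at -1.59 on its brighter probe set (adjusted p = 0.193) and the cytokine Il1b at -1.32 ± 0.32 (adjusted p = 0.0732). Il1b had 144, 63.1 and 155 at 2 h and 53.2, 38.7 and 38 at 6 h. Here too 2 h replicate 2 was the lowest of its group, and without it Il1b reached an adjusted p of 0.00392 and Selp one of 0.00726.

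**Figure D1:**
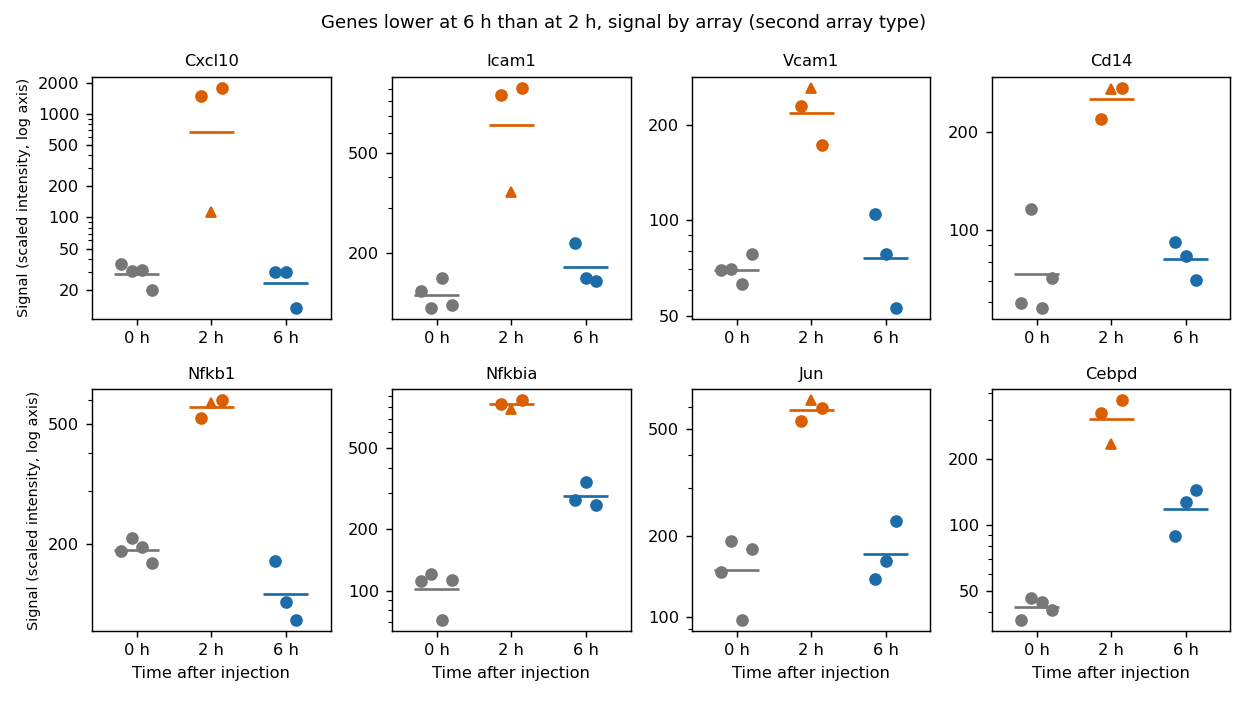
Signal of 8 genes that were lower at 6 h than at 2 h, by array: 4 arrays at 0 h (untreated), 3 at 2 h and 3 at 6 h after methylprednisolone, on a log axis of scaled intensity. Points are arrays, the triangle is 2 h replicate 2, and bars are the group means of log2(signal + 3.56) turned back into signal. All 2 h arrays lie above all 6 h arrays in each panel, and in Cxcl10 the triangle is at 112 against 1469.9 and 1768.

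Signalling genes and the receptor for bacterial lipopolysaccharide moved with this group. Cd14, which binds lipopolysaccharide on monocytes and tubule cells, had 219.5, 271 and 273 at 2 h and 92, 83.5 and 70.5 at 6 h, with 57.9 to 116 at 0 h. It was lower by -1.59 ± 0.26 (adjusted p = 0.0182; second probe set -1.52, adjusted p = 0.0213). Map3k1, a kinase upstream of JNK, had 279, 176 and 306 at 2 h and 109.9, 55.2 and 72.8 at 6 h, a difference of -1.65 ± 0.31 (adjusted p = 0.0272). Mapkapk3, a kinase that p38 activates, differed by -1.59 (adjusted p = 0.0272; 0.052 with the block). The other probe sets of Map3k1 (-1.15 and -1.16) and Mapkapk3 (both -0.97) had the same sign and did not pass. Without 2 h replicate 2 those of Map3k1 stood at -1.55 and -1.73 (adjusted p = 0.0404 and 0.00601) and those of Mapkapk3 at -1.16 and -1.02 (adjusted p = 0.0425 and 0.241). Ptpn1, a tyrosine phosphatase that acts on insulin and cytokine receptors, was lower by -1.23 (adjusted p = 0.0214). Ifitm3, an interferon-induced membrane protein that blocks virus entry, had 963, 935 and 894 at 2 h and 595, 419 and 514 at 6 h (-0.88 ± 0.18, adjusted p = 0.0422; 0.0545 with the block). Slfn2, a Schlafen gene of immune cells, was lower by -1.09 (adjusted p = 0.0341). Cd14 missed the threshold without 6 h replicate 2 or 3 (0.0764 and 0.0845), and Map3k1 and Mapkapk3 without 2 h replicate 1 or 3 or 6 h replicate 2 or 3 (up to 0.12 and 0.118). Ptpn1 missed it without any 1 of 3 arrays (up to 0.101), Slfn2 of 6 (up to 0.118) and Ifitm3 of 8 (up to 0.164).

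Of the early transcription factors, Jun, Junb, Cebpd and Cebpb were lower at 6 h by at least 1 probe set. Jun, a subunit of AP-1, had 147, 191, 97.5 and 178 at 0 h, 535, 636 and 597 at 2 h and 138, 162 and 226 at 6 h. The 6 h arrays overlapped the untreated ones, and the difference was -1.75 ± 0.27 (adjusted p = 0.0121). A second called probe set gave -1.93 (adjusted p = 0.0056), and 2 others gave -1.26 and -1.09 without passing. Junb, another AP-1 subunit, was at 221, 182 and 224 and then 84, 107 and 79.8 (-1.18 ± 0.20, adjusted p = 0.0213). Cebpd, a C/EBP factor of the acute-phase response, had 37, 46.5, 44.5 and 41 at 0 h, 323, 234 and 369 at 2 h and 89, 127 and 145 at 6 h. It was lower at 6 h by -1.34 ± 0.24 (adjusted p = 0.0231; second probe set -1.76, adjusted p = 0.0156; one that did not pass -0.19, adjusted p = 0.724), and all of its 6 h arrays were above all untreated ones. For Cebpb, a related factor, the probe sets disagreed: one had 417, 204 and 285 at 2 h and 51.8, 109 and 128 at 6 h (-1.65 ± 0.36, adjusted p = 0.0465; 0.0745 with the block), while the brighter one had 795, 249.6 and 810.2 and then 262, 445 and 417 (-0.57 ± 0.40, adjusted p = 0.503). Without 2 h replicate 2 the brighter one stood at -1.13 (adjusted p = 0.0435). The fainter probe set of Cebpb stood at 3.44 to 6.51 in untreated kidneys, near the pseudocount.

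Of the 18 tested immediate early and stress factors, Jun and Junb were lower, 0 were higher and the median difference was -0.35. Over all genes tested, by the brightest probe set, 0.662% were lower and 0.788% higher. In 9 of the 18 the 2 h arrays lay above all 6 h arrays, against 9.58% of all genes tested, and in 3 the 6 h arrays lay above all 2 h arrays, against 10.5%. Those not passing included the Krüppel-like factor Klf6 (-2.50 ± 0.65, adjusted p = 0.0894), the zinc finger factor Egr1 (-1.81, adjusted p = 0.0704; 0.0297 with the block), the stress factor Atf3 (-1.41, adjusted p = 0.0914) and Myc, which drives growth (-1.30, adjusted p = 0.0547). Egr1 and Atf3 were lowest at 2 h in replicate 2 (258 against 757 and 805, and 58.6 against 172 and 145), and without that array they had adjusted p = 0.00423 and 0.00547. Among 14 genes that glucocorticoids are known to induce, Nfkbia, Cebpd and Cebpb were lower by at least 1 probe set and 0 were higher, with a median of -0.16. By the brightest probe set 2 of the 14 were lower, against 0.662% of all genes tested. Sgk1, a kinase that raises sodium transport, had 1496, 818 and 1276 at 2 h and 1331, 1316 and 1103 at 6 h, above the 121 to 313 of untreated kidneys at both times (difference 0.10 ± 0.32, adjusted p = 0.905). Sds, the serine dehydratase, likewise had 749.8, 2231 and 1178 at 2 h and 1424, 1209 and 1129.8 at 6 h (-0.01 ± 0.60, adjusted p = 0.996), against 7.57 to 83.6 at 0 h.

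Without 6 h replicate 2 the call was missed by Jun (adjusted p = 0.0764 for the probe set first given; the second was kept without any 1 array) and by both probe sets of Cebpd (0.0882 and 0.0764). The first probe set of Cebpd also missed it without 2 h replicate 1 or 3 or 6 h replicate 1 or 3, and Junb without 2 h replicate 3 or 6 h replicate 1 or 3 (up to 0.0984). Cebpb missed it without any 1 array but 2 h replicate 2 (up to 0.119).

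Among chaperones, which fold and refold proteins, 2 genes were lower at 6 h. Hsph1, a heat shock protein of the HSP110 family, had 571, 782 and 626 at 2 h and 267, 152 and 253 at 6 h, overlapping the 163 to 276 of untreated kidneys (-1.57 ± 0.28, adjusted p = 0.0214). A second, dimmer probe set of Hsph1 stood at -0.09 (adjusted p = 0.917). Dnaja1, a co-chaperone of HSP70, had 1344, 2344 and 1301 at 2 h and 641, 563 and 682 at 6 h (-1.35 ± 0.29, adjusted p = 0.0463; 0.0528 without 2 h replicate 2, its highest array). Of the 19 tested chaperone genes 2 were lower and 0 higher by the brightest probe set, against 0.662% and 0.788% of all genes tested. In 2 the difference was positive, against 54.7% of all genes, and the median was -0.57. Among those not passing, Hsp90ab1 stood at -0.58 on its brightest probe set (adjusted p = 0.119), and the endoplasmic reticulum chaperones Hspa5 and Pdia4 at -0.98 and -1.23 (adjusted p = 0.0949 and 0.0758). Hsph1 missed the threshold without 2 h replicate 3 or 6 h replicate 2 or 3 (up to 0.101), and Dnaja1 without any 1 array but 0 h replicate 4 (up to 0.166).

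Acute-phase and tubular injury genes differed widely among the arrays of each time, and 1 of them was lower at 6 h. Serpina3n, a secreted protease inhibitor, had 176, 371 and 224 at 2 h and 108, 45.6 and 42.9 at 6 h and was the single member past the threshold (-1.97 ± 0.38, adjusted p = 0.03). By the brightest probe set 1 of the 17 tested members was lower, against 0.662% of all genes tested. None was positive, against 54.7% of all genes, and the median was -1.30. Fga, a fibrinogen chain, had 168, 49.4, 74.6 and 71.4 at 0 h, 2311, 199 and 3022 at 2 h and 1039, 72.9 and 93.8 at 6 h. Its 2 h and 6 h arrays overlapped, because 2 h replicate 2 was low and 6 h replicate 1 high (-2.50 ± 1.06, adjusted p = 0.265). Fgb (645, 94.1 and 918, then 224, 22.5 and 12.8) and Fgg (645, 203 and 468, then 278, 4.64 and 3.19) likewise had replicate 2 lowest at 2 h and replicate 1 highest at 6 h (adjusted p = 0.129 and 0.106; 0.0497 for Fgg with the block). Lcn2, a siderophore-binding protein of injured tubules and neutrophils, had 897, 344 and 1429 at 2 h and 776, 77.4 and 159 at 6 h (adjusted p = 0.215). Hmox1, which degrades heme, had 545, 62.6 and 645 at 2 h and 100.2, 80 and 89 at 6 h (-1.62 ± 0.65, adjusted p = 0.237), and without 2 h replicate 2 it stood at -2.68 (adjusted p = 0.000243). Hp, which binds free hemoglobin and is made by liver and fat, ran the other way in that array, at 1102 against 119.8 and 149.7. Havcr1, the tubular injury marker KIM-1, had 138, 43.4 and 176 and then 19.9, 24 and 19.6 (-2.11 ± 0.56, adjusted p = 0.0949). Serpina3n missed the threshold without 0 h replicate 4, 2 h replicate 3 or 6 h replicate 2 or 3 (up to 0.133).

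**Figure D2:**
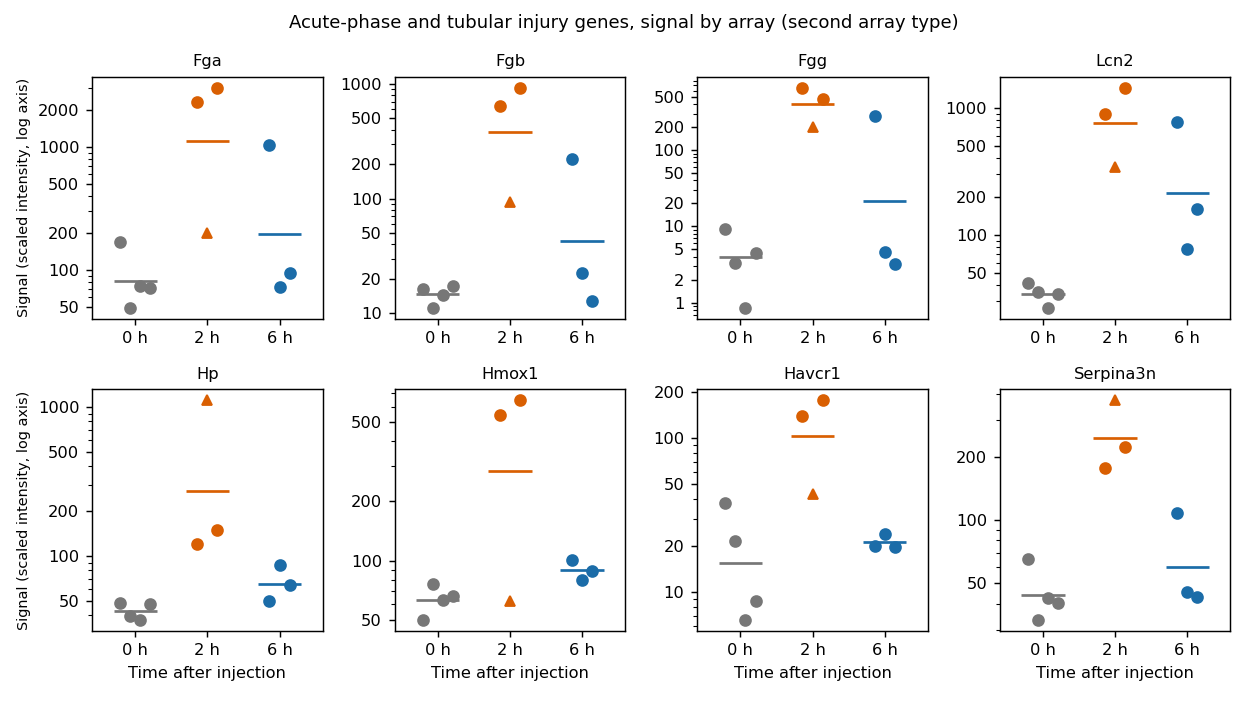
Signal of 8 acute-phase and tubular injury genes by array, drawn as in the plot of lower genes, on a log axis of scaled intensity. In the fibrinogen genes Fga, Fgb and Fgg and in Lcn2 the lowest 2 h array is replicate 2 (triangle) and the highest 6 h array is replicate 1, so that both times span a wide range; Hp is highest in 2 h replicate 2.

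The remaining lower genes have varied roles, and 0 of 20 tested proximal tubule markers and 0 of 19 for the thick limb, distal tubule and collecting duct were called in either direction. Of all genes tested, by the brightest probe set, 0.662% were called lower and 0.788% higher. Mep1b, the beta subunit of the brush border protease meprin, had 212, 288, 166 and 206 at 0 h, 299, 442 and 313 at 2 h and 119, 144 and 125 at 6 h (-1.40 ± 0.24, adjusted p = 0.0213). Its 2 h arrays were above and its 6 h arrays below all untreated ones. Ctsl, a lysosomal protease, had 1278, 1447 and 1284 at 2 h and 521, 649 and 459 at 6 h, against 683 to 841 at 0 h (-1.31 ± 0.19, adjusted p = 0.00784). Pakap, an anchor protein for protein kinase A, had 694, 446 and 624 and then 278, 152 and 149.5 (-1.62 ± 0.29, adjusted p = 0.0214). Kmo, the kynurenine monooxygenase of tryptophan breakdown, had 814, 676 and 704 and then 410.2, 368 and 354, below the 549 to 796 of untreated kidneys (-0.95 ± 0.19, adjusted p = 0.0401). Kcnj8, a pore subunit of ATP-sensitive potassium channels, and B4galt6, which makes lactosylceramide, also ended below the untreated range (-1.21 and -1.07, adjusted p = 0.0476 and 0.0463; 0.0545 and 0.0601 with the block). Atp1b3, a beta subunit of the sodium pump, had 591, 581 and 458 at 2 h and 323, 234 and 241 at 6 h (-1.03 ± 0.20, adjusted p = 0.03). Kcnj8 missed the threshold without any 1 of the 10 arrays (up to 0.164), B4galt6 without any 1 of 9 (up to 0.166) and Atp1b3 without any 1 of 5 (up to 0.133). Without 2 h replicate 2 Kcnj8 and B4galt6 had 0.0791 and 0.0595. Mep1b missed it without any 1 of the 6 h arrays (up to 0.0846), Ctsl without 6 h replicate 3 (0.0541), Pakap without 2 h replicate 1 or 3 or 6 h replicate 2 or 3 (up to 0.111) and Kmo without any 1 of 8 arrays (up to 0.142).

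Set against the untreated arrays, which are a description here since the fit shares them, 23 of the 26 lower genes had all 2 h arrays above all 0 h arrays. Over all 3174 genes tested, by the brightest probe set, 10.4% did and 14.6% had all 2 h arrays below them; at 6 h, 6.68% lay above and 8.76% below. The called genes were chosen for being high or low at 2 h relative to 6 h, so nothing is read from these counts. At 6 h, 16 of the 26 overlapped the untreated arrays, 7 lay below all of them (Ctsl, Cx3cl1, Kcnj8, Mep1b, B4galt6, Kmo and Pakap) and 3 still lay above (Cebpb, Cebpd and Nfkbia). In 12 of the 28 higher genes all 2 h arrays were below all untreated arrays, in 5 above, and in 11 the groups overlapped. At 6 h 16 of the 28 were above all untreated arrays, 11 overlapped them, and Bmp4 was below.

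Conjugation and drug-metabolising enzymes formed the list with the most genes higher at 6 h. Sult1a1, a sulfotransferase for phenols and hormones, had 171, 89.1, 117 and 199 at 0 h, 728, 393 and 452 at 2 h and 2179, 2063 and 2416 at 6 h. The 3 times did not overlap, and 6 h exceeded 2 h by 2.12 ± 0.31, 4.35-fold (adjusted p = 0.00816; second probe set 2.30, adjusted p = 0.0422). Gstm1, a mu-class glutathione transferase, had 77, 66.1, 101 and 89 at 0 h, 141, 137 and 116 at 2 h and 648, 584 and 528 at 6 h (2.13 ± 0.21, 4.37-fold, adjusted p = 0.00152). Gstm2, its close relative, had 309, 243 and 197 at 2 h and 921, 787 and 694 at 6 h (1.68 ± 0.25, adjusted p = 0.00835). A further probe set of each was called (1.94 and 1.45), and another of Gstm1 stood at 0.88 (adjusted p = 0.129). Most of these are of a kind that can match several related transcripts, so the shares of Gstm1 and Gstm2 are uncertain. Por, which hands electrons to all microsomal P450 enzymes, had 282, 322, 271 and 297 at 0 h, 475, 480.0 and 491 at 2 h and 1278, 1171 and 1555 at 6 h (1.45 ± 0.18, 2.74-fold, adjusted p = 0.00362; second probe set 1.48, adjusted p = 0.0238). Cyp2c22, a P450 enzyme, went from 5.5 to 10.8 at 0 h to 41.9, 41.1 and 10.4 at 2 h and 209.9, 116 and 147 at 6 h (2.36 ± 0.43, adjusted p = 0.0238), and Cyp2f4, another, from 91.5, 100.05 and 88.1 to 163, 212 and 175 (0.94 ± 0.21, adjusted p = 0.0481; 0.0545 with the block). Cyp2c22 was bright enough to test only through its 6 h arrays, its mean log2 level without them being 4.08 against a filter level of 4.85.

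Of 41 tested genes in drug metabolism and glutathione handling, Sult1a1, Gstm1, Gstm2 and Por were higher by at least 1 probe set and 0 lower. By the brightest probe set 3 of the 41 were higher, against 0.788% of all genes, and the median was 0.02. The arrays of the 2 times did not overlap in 7 genes with 6 h above (10.5% of all genes) and in 7 with 2 h above (9.58%). Gclc, the catalytic subunit of the enzyme that starts glutathione synthesis, had 1525, 2354 and 767 at 2 h and 685, 613 and 263 at 6 h (-1.54 ± 0.41, adjusted p = 0.095; 0.0397 with the block). Por (first probe set) and Gstm1 (first probe set) were called without any 1 of the 10 arrays. Sult1a1 missed the threshold without 6 h replicate 3 (0.0541), Gstm2 without 6 h replicate 2 (0.0514), Cyp2c22 without any 1 of the 6 h arrays (up to 0.0984) and Cyp2f4 without any 1 of 9 arrays (up to 0.178).

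Lipid and amino acid genes were fewer. G0s2, an inhibitor of the triglyceride lipase ATGL, had 300.5, 360.1, 375 and 293 at 0 h, 48.9, 106 and 61.3 at 2 h and 307, 298 and 266 at 6 h. It was far below untreated kidneys at 2 h and back near them at 6 h, 2.03 ± 0.26 above 2 h (4.08-fold, adjusted p = 0.00464), and kept its call without any 1 array. Scd2, a stearoyl-CoA desaturase, had 78, 8.31 and 55.2 at 2 h and 389.8, 185 and 218 at 6 h, with 194 to 452 at 0 h. Its difference of 2.73 ± 0.60 (adjusted p = 0.0481) was the largest among the higher genes, but without 2 h replicate 2 it was 1.88 (adjusted p = 0.0209), and its 3 other probe sets, which stood at 0.14, 0.49 and 1.38, did not pass (the last had an adjusted p of 0.0732, or 0.0397 with the block). Without any 1 of 8 arrays Scd2 missed the threshold (up to 0.156, without 6 h replicate 1). Got1, the cytosolic aspartate aminotransferase used in gluconeogenesis, had 640.0, 749 and 687 at 2 h and 1132, 1542 and 1399 at 6 h (0.96 ± 0.19, adjusted p = 0.0337), above the 390.3 to 476 of untreated kidneys at both times. Gnmt, which uses S-adenosylmethionine to methylate glycine, had 84.4, 36.5 and 84.2 and then 185, 139 and 199.98 (1.38 ± 0.30, adjusted p = 0.0465). Of 24 tested genes of fatty acid oxidation and lipid regulation G0s2 alone was called, of 15 in cholesterol synthesis and desaturation Scd2, of 13 in gluconeogenesis and ammoniagenesis Got1, and of 26 in amino acid catabolism Got1 (higher) and Kmo (lower). Their medians were 0.18, -0.03, 0.25 and 0.03. Across all genes tested, by the brightest probe set, 0.788% were higher, 0.662% were lower and the median was 0.05. Pck1, the rate-limiting enzyme of gluconeogenesis, had 2741, 6249 and 2149 at 2 h and 5411, 6880.4 and 5744 at 6 h (0.85 ± 0.31, adjusted p = 0.207), and without 2 h replicate 2 it stood at 1.30 (adjusted p = 0.00296). Got1 missed the threshold without 0 h replicate 3 or 4, 2 h replicate 1 or 3 or 6 h replicate 2 or 3 (up to 0.138), and Gnmt without any 1 of 8 arrays (up to 0.17).

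**Figure D3:**
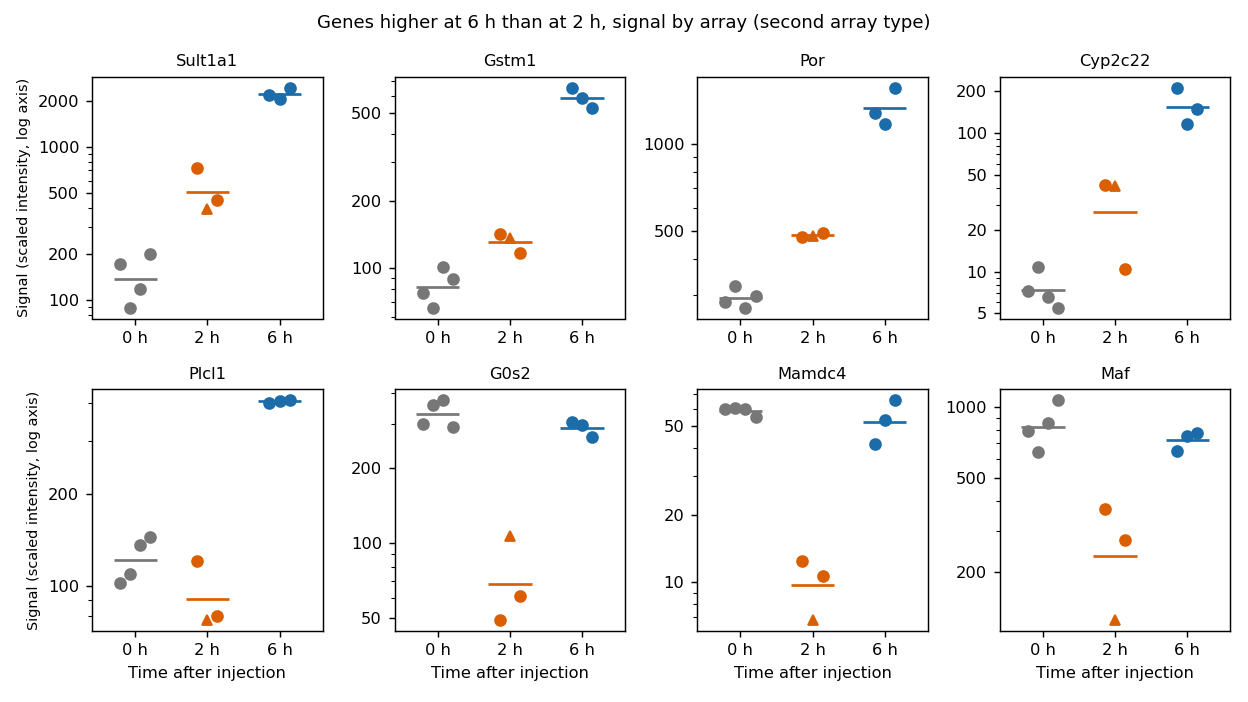
Signal of 8 genes that were higher at 6 h than at 2 h, by array and on a log axis of scaled intensity, drawn as in the plot of lower genes. Sult1a1, Gstm1, Por and Cyp2c22 lie above the untreated arrays at 6 h, whereas G0s2, Mamdc4 and Maf are below them at 2 h and near them at 6 h.

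Signalling, transport and transcription genes completed the higher group. Plcl1, a phospholipase C-like protein that binds phosphatases, had 103, 110.1, 137 and 145 at 0 h, 121, 77.7 and 80.2 at 2 h and 399, 404 and 407 at 6 h. The 6 h arrays differed little from each other and exceeded 2 h by 2.10 ± 0.23, 4.3-fold (adjusted p = 0.00159), with or without any 1 array; its other probe sets, at 1.29 and 0.85, did not pass. Mamdc4, an apical endosomal glycoprotein, had 12.5, 6.79 and 10.6 at 2 h and 41.5, 53.2 and 65.4 at 6 h, against 55 to 60.5 at 0 h (2.07 ± 0.26, adjusted p = 0.00362). Maf, a transcription factor of the AP-1 superfamily, had 787, 644, 853 and 1063 at 0 h, 369, 126 and 273 at 2 h and 647, 749.9 and 773 at 6 h (1.61 ± 0.34, adjusted p = 0.0422), and its other probe sets stood at 0.73 and 1.14 without passing. Bmp4, a secreted growth factor, had 61.5 to 62.6 at 0 h, 18.1, 11.6 and 3.98 at 2 h and 45.3, 57.7 and 36.9 at 6 h (1.87 ± 0.35, adjusted p = 0.0255), the one higher gene still below all untreated arrays. Ppil3, a prolyl isomerase, Cyfip2, of the actin-regulating WAVE complex, and Clrn3, a clarin, were likewise below all untreated arrays at 2 h, with differences of 1.91, 1.69 and 1.58. Clrn3 had an adjusted p of 0.0358, or 0.0545 with the block. LOC100912629, which has no described role here, had 40.9, 45.6 and 62.3 at 2 h and 147, 175 and 252 at 6 h (1.86 ± 0.34, adjusted p = 0.0232).

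Per2, a repressor of the circadian clock, had 71.5 to 87.9 at 0 h, 93.9, 62.2 and 57.8 at 2 h and 172, 142 and 147 at 6 h (1.10 ± 0.22, adjusted p = 0.0367), the single called gene of 8 tested clock genes (median 0.27). Across all genes tested, by the brightest probe set, 0.788% were higher. Csrp2, a LIM domain protein, had 577, 907 and 533 and then 1271, 1849.6 and 1726 (1.28, adjusted p = 0.0463). Zfp354a, a zinc finger repressor known from kidney, had 142, 59.1 and 151 and then 312, 270.2 and 338 (1.46, adjusted p = 0.0422). Adra1b, an adrenaline receptor, had 60.2, 51.8 and 57.2 and then 116, 114 and 129 (1.04, adjusted p = 0.03). The other called genes were Snap23, a SNARE protein of vesicle fusion (1.49), Sipa1l1, which acts on the GTPase Rap (1.56), Plcb4, a phospholipase C (1.57), Nudt4, a hydrolase of inositol pyrophosphates (1.13), Abracl (1.26) and Kank2 (0.98). With the block Nudt4 and Kank2 had adjusted p = 0.0569 and 0.0683, and without 2 h replicate 2 Plcb4 and Cyfip2 had 0.0595 and 0.0649. The threshold was missed without any 1 of 9 arrays by Csrp2 (up to 0.167), Nudt4 (0.164), Kank2 (0.143) and Plcb4 (0.14), of 8 by Abracl (0.148), of 7 by Snap23 (0.149) and Zfp354a (0.142), of 6 by Clrn3 (0.118), of 5 by Adra1b (0.123) and of 3 by Sipa1l1 (0.0764).

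The calls of Plcl1 and Mamdc4 were kept without any 1 array. Ppil3 missed the threshold without 6 h replicate 3 (0.0541), Bmp4 without any 1 of the 6 h arrays (up to 0.117), LOC100912629 without 2 h replicate 1 or 6 h replicate 2 or 3 (up to 0.118), and Maf, Cyfip2 and Per2 each without any 1 of 8 arrays (up to 0.142, 0.149 and 0.118). For 7 of the 36 higher probe sets, among them Bmp4, Mamdc4 and Ppil3, the 2 h mean lay under the filter level, and for 3 of the 39 lower ones, Cxcl10 included, the 6 h mean did. Some probe sets owe their place in the test to the time when they were bright. Taken over the other arrays, untreated ones included, the mean lay under the filter level for 3 higher probe sets (Cyp2c22, Plcb4 and 1 without a single symbol) and 4 lower ones (the called probe set of Cebpb, one of Cebpd and 2 without a single symbol). Bmp4, Mamdc4, Ppil3 and Cxcl10 were not among these. With 4 times the pseudocount Bmp4, Mamdc4, Ppil3 and Cyp2c22 differed by 1.28, 1.47, 1.40 and 1.98.

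Across the lists of genes, the cytokine and acute-phase lists had the lowest medians (-1.39 and -1.30), followed by the chaperones (-0.57). The medians of the other lists ran from -0.41 to 0.38, against 0.05 over all genes tested. Besides the lists already described, 8 macrophage and neutrophil markers were tested, of which Cd14 was lower and 0 were higher (median -0.41). Of all genes tested, by the brightest probe set, 0.662% were lower and 0.788% higher. S100a9, a calcium-binding protein of neutrophils, had 107, 52 and 113 at 2 h and 43.8, 9.97 and 18.4 at 6 h (-1.89 ± 0.49, adjusted p = 0.0866; 0.0397 with the block). Of 23 tested genes for sodium and potassium handling 20 were positive, against 54.7% of all genes, and 0 passed in either direction. The median was 0.38, or 0.17 without 2 h replicate 2. Scnn1a, the alpha subunit of the epithelial sodium channel, had 232, 79.6 and 223 at 2 h and 483, 445 and 492 at 6 h, a clear separation that did not pass (1.53 ± 0.38, adjusted p = 0.0755). Among renin-angiotensin and vasoactive genes 0 of 17 passed; Edn1, the vasoconstrictor endothelin, had 63.5, 83.3 and 57.6 and then 30.1, 33.5 and 26.7 (-1.08 ± 0.24, adjusted p = 0.051), and the angiotensin receptor Agtr1a stood at -1.06 on probe set M86912exon_at (adjusted p = 0.0732). Lox, which cross-links collagen, had 45.4, 62.7 and 26.6 and then 123, 110.4 and 116 on probe set S77494_s_at (1.38, adjusted p = 0.0516), with 0 of 30 matrix genes called. Ribosomal proteins (40 genes), oxidative phosphorylation (49) and proteasome subunits (27) had medians of -0.02, -0.07 and 0.02 and 0 called.

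**Figure D4:**
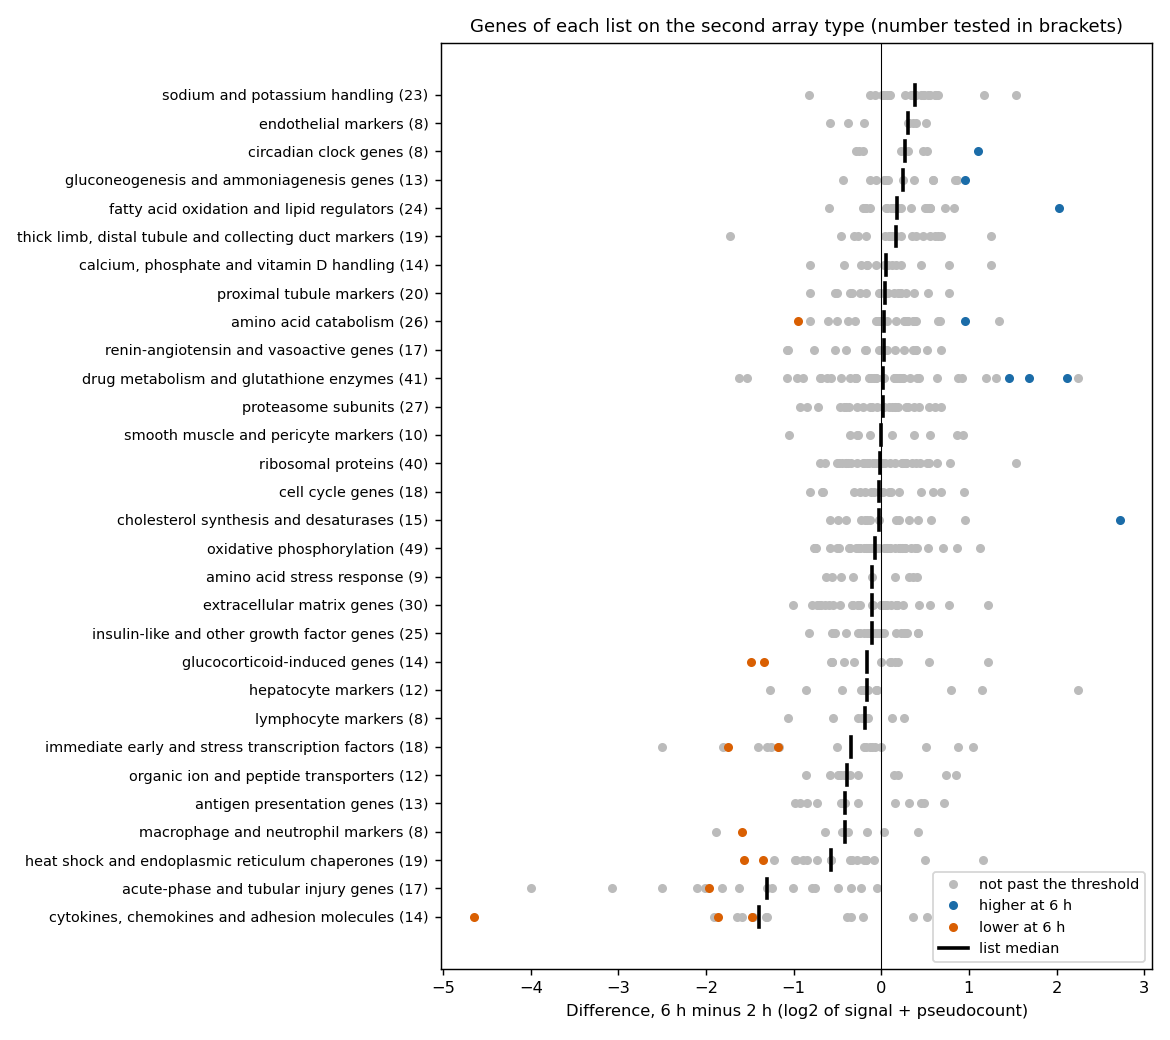
Difference between 6 h and 2 h (log2 of signal + pseudocount) for each tested gene of the lists with at least 8 tested genes, the brightest probe set of each gene being drawn; numbers in brackets are genes tested. Orange points passed as lower at 6 h, blue points as higher, grey points did not pass, and black bars are list medians. Cytokines, chemokines and adhesion molecules and acute-phase genes have medians of -1.39 and -1.30, while ribosomal proteins, oxidative phosphorylation and proteasome subunits lie around 0.

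Markers of some other cell types moved with the times, and their part in these results was not tested. The summed signal of 19 macrophage and neutrophil probe sets was 2393 to 2810 at 2 h and 1825 to 2159 at 6 h, without overlap, against 1067 to 1375 in untreated kidneys. Hepatocyte (7667 to 13332 at 2 h, 7511 to 12253 at 6 h), lymphocyte (538 to 581 and 418 to 555), endothelial (863 to 1081 and 848 to 1065) and red blood cell sums (1732 to 5253 and 1506 to 2741) overlapped between the times. Proximal tubule markers summed to 46897 to 55944 at 2 h and 46171 to 46723 at 6 h, also without overlap though narrowly, against 45578 to 52771 in untreated kidneys. The log2 ratio of the 3′ to the 5′ control probe set, which grows as RNA degrades, was 2.67 to 4.38 for hexokinase at 2 h and 1.24 to 2.54 at 6 h. For GAPDH (0.26 to 0.47 and 0.12 to 0.39) and beta-actin (0.10 to 0.74 and 0.63 to 0.68) the times overlapped. In the titles a letter follows the sample number. The 2 h replicates 1 and 3 carry b and the other 8 arrays a, and the meaning of the letter is not stated in the sources used here. Fits without 2 h replicate 2 thus set 2 h arrays of letter b against 6 h arrays of letter a.

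The main array type, with 3 arrays at each of the same times, gave the direction again for most of these genes. There 149 of 9520 probe sets (1.57%) were called, 69 higher (0.725%) and 80 lower (0.84%). Of the 28 higher genes 23 were tested on the main type, where 8 were called in the same direction (34.8%) and 0 in the opposite one, and 22 had the same sign. Ppil3 was the exception, at -0.10 (adjusted p = 0.863). Of the 26 lower genes 24 were tested there, 9 were called (37.5%), 0 in the opposite direction, and all 24 had the same sign. The share with the same sign among all 2455 genes tested on both types is not given here. Nothing particular to the called genes is therefore read from the shared signs. A shared sign did not mean a like size. On the main type Ctsl stood at -0.11 (limma adjusted p = 0.835) and, among the higher genes, Adra1b at 0.09 (0.915). Read the other way, 23 higher and 26 lower genes called on the main type were tested on the second, and 8 (34.8%) and 9 (34.6%) of them were called there. Called on both were Sult1a1 (2.12 on the second type and 1.74 on the main type), Gstm2 (1.68 and 1.87), Por (1.45 and 1.36), Plcl1 (2.10 and 1.46), Csrp2 (1.28 and 1.53), Maf (1.61 and 1.27), Nudt4 and Snap23 among the higher genes. Among the lower ones they were Cxcl10 (-4.65 and -4.19), Vcam1 (-1.48 and -1.97), Cd14 (-1.59 and -1.91), Cx3cl1 (-0.97 and -1.36), Nfkb1 (-2.03 and -1.22), Mep1b (-1.40 and -1.07), Pakap (-1.62 and -1.11), Hsph1 (-1.57 and -0.84) and Ifitm3 (-0.88 and -0.98). Edn1, Agtr1a and Scnn1a, which just missed the threshold here, passed on the main type at -1.10, -1.07 and 1.63 (adjusted p = 0.00271, 0.00278 and 0.0131).

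The agreement of the 2 array types is not independent support. Each of the 6 arrays at 2 h and 6 h was set against the 3 main-type arrays of the same time only. By deviation from the group mean it correlated best with the array of its own number (r = 0.185 to 0.461 across 3078 genes, which are not independent replicates). Deviations within a group cancel out, which lowers the correlation between different numbers. Both types may hold RNA of the same samples, and the labels do not say. G0s2 and Gstm1, called here, stood at 2.26 and 1.90 on the main type without passing (adjusted p = 0.122 and 0.108), and Nfkbia and Cebpd at -1.13 and -1.11 (adjusted p = 0.324 and 0.395).

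**Figure D5:**
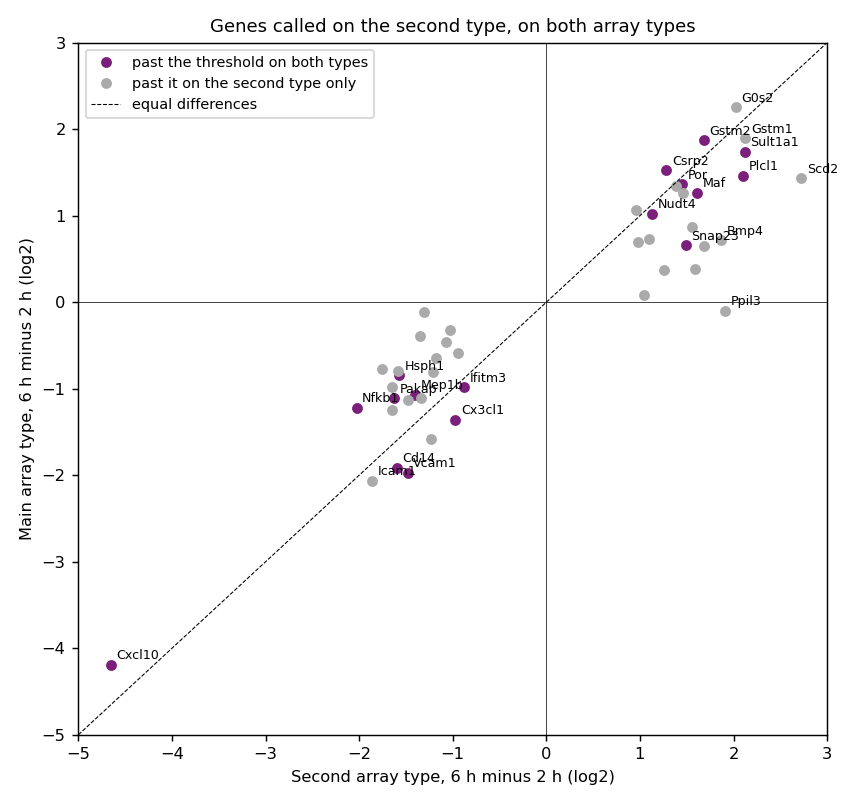
Difference between 6 h and 2 h of the genes called on the second array type and tested on the main type (horizontal axis, log2) against the difference of the same gene on the main array type (vertical axis, log2), 1 point a gene, using the brightest called probe set on the second type and the brightest tested one on the main type. Purple points passed the threshold on both types and grey points on the second only; the dashed line marks equal differences. All points but Ppil3, at -0.10 on the main type, have the same sign on both.

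The number of calls depended on the arrays and on the fit. Taken as 3 pairs by sample number and fitted on these 6 arrays alone, 0 probe sets passed in either direction (limma, 820 at an unadjusted p under 0.05). The adjusted p of the 75 stayed at or under 0.192. With complete pairs the fitted difference is the same as without pairing, so no direction could change. The 6 arrays without pairing gave 7 higher and 7 lower, all among the 75, from Por, Gstm2, G0s2, Plcl1, Sult1a1, Gstm1, Nfkb1, Jun, Cd14, Nfkbia and 2 probe sets without a single symbol. With sample number as a block over all 10 arrays 43 higher and 57 lower were called, 31 and 32 of them among the 75. Leaving out 6 h replicate 3 left 8 higher and 5 lower and 6 h replicate 2 left 8 and 6, against 15 and 33 without 6 h replicate 1. Of the 2 h arrays, leaving out replicate 1 gave 43 and 17 and replicate 3 gave 23 and 19, while without 0 h replicate 1, 2, 3 or 4 there were 24, 22, 22 and 21 higher and 31, 29, 27 and 26 lower. Probe sets called without any 1 of the 10 arrays were 6 higher (Por, G0s2, Mamdc4, Plcl1, Gstm1 and 1 without a single symbol) and 3 lower (Nfkb1, Jun and 1 without a single symbol). On simulated arrays of this design 37% of changes of 1 on the log2 scale and 92% of changes of 2 were recovered, so a smaller change that was missed here is not shown to be absent. The simulated noise was independent between arrays, with neither an array that stood apart nor an effect of sample number. It also gave 140 calls against 75 here, so these shares need not hold for the data.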

How the data were processed

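Total RNA of rat kidney was measured on 2 Affymetrix array types. Each probe set has a deposited intensity (linear, above 0) that the authors had scaled per array, as the values themselves show: the mean of each array without its lowest and highest 2% was 150.19 to 150.23 on the second type, and medians ran from 38.8 to 45.0 there and from 65.6 to 83.3 on the main type. The algorithm, and any step before the scaling, is not stated in the sources used here. Array types were scaled separately, so tests were run within each table. The number of arrays limits the precision.

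From these, log2(intensity + pseudocount) was computed, the pseudocount being the 10th percentile (3.56 on the second type, 7.63 on the main type). Such differences are too small for dim probe sets. After removal of 59 and 57 control probe sets, those whose mean log2 level reached the 40th percentile entered the test (5244 and 9520; log2 floor of 4.85 on the second type). limma 3.58.1 in R 4.3.3 fitted all 10 arrays by time, or all 52 libraries of the main type with arrays a and b of 5 h replicate 1 averaged, with eBayes and a mean-variance trend, and Benjamini-Hochberg adjustment over all probe sets tested (threshold 0.05). The contrast was 6 h minus 2 h. A fit on 5244 simulated probe sets, 200 of them changed, made 140 calls, 11 of them false.

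Deviations from the group means of 2 h and 6 h arrays with the same sample number correlated at r = 0.194, 0.241 and 0.167, each over 0.1. The numbers may therefore pair the samples, and fits with sample number as a block were run as alternatives. The main fit, which gave the calls, did not use this pairing. The alternatives were other pseudocounts, filters, normalization, array sets, array weights, robust moderation, the block and each array left out.

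Probe sets were named from the platform annotation, with symbols brought up to date by gene identifier from a GRCr8 table that served for names alone. On the second type 7006 probe sets had 1 symbol, 308 several and 1426 none, and none was named from several. Named were the 14 largest called differences in each direction (1 probe set a gene, its brightest called one, with 3 arrays above the other 3), the called members of the gene lists, and up to 4 members a list with the largest difference; other genes were added after their values were seen. A list counts a gene by its brightest tested probe set, or by any called one. The samples, lists and tests were chosen with earlier results of these data known, and the NF-kappaB words after the calls were seen. Promoters (RefSeq, GRCr8) were matched by gene identifier for 27 of 28 higher and 23 of 26 lower genes.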

Additional observations from a re-analysis of the deposited data

Results flagged for a closer look

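Among the genes named above, 2 had an untreated array that lay far from the other 3, by the ratio of its gap to the whole range of the 4 arrays. Such a ratio marks about 1 in 20 groups by chance. For Mamdc4 (0.894) 0 h replicate 4 was at 55 and the others between 59.8 and 60.5, a small distance in signal. For Nfkbia (0.839) 0 h replicate 3 was at 71.8 and the others between 111 and 121. Its second probe set had 88.5, 76.4, 71.9 and 73.6 at 0 h. Untreated arrays enter the comparison of 6 h with 2 h through the estimate of the spread, the filter and the pseudocount, but not through the 2 group means.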

How the results depend on the processing

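Counts of probe sets higher and lower at 6 h (36 and 39) stayed within 1.5 times under other pseudocounts, no filter or a stricter one, quantile normalization, robust moderation and the replicate block over all 10 arrays. They were 7 and 7 with the 6 arrays alone, 0 and 0 with the replicate block on the 6 arrays, 56 and 88 with array weights and 680 and 258 without the arrays of letter b, where 2 h replicate 2, the array that stands apart, is the lone 2 h array and is assumed to vary like the other groups. With the block and without 2 h replicate 2, an alternative chosen after seeing the data, they were 64 and 104. Leaving out 1 array at a time gave 8 to 63 higher and 5 to 97 lower. The replicate block over all 10 arrays ended 12 of the 75 calls and made others, and the named genes whose call it changed have its value beside them; it changed no other named call; on the 6 arrays it ended all 75. On the main type (69 and 80) there were 44 higher without the filter, and 11 to 47 higher and 17 to 71 lower with 1 library left out. For 36 named genes (44 probe sets) followed under 22 settings, 695 of 958 values kept their side of the threshold, 263 lost it and 0 changed direction. The direction was fixed in advance under most settings. Many return the same difference, and leaving out an array cannot reverse probe sets without overlap between the times. The causes were not tested. Where both times are dim, the signal over background limits what could be seen.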
